A study of Rattus norvegicus with 16 samples.

Results

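ADAMTS proteases were followed in 4 tendons of Sprague Dawley rats: 10 genes picked by symbol, out of 23285 genes in the deposited count table. They are Adamts2, Adamts3 and Adamts14, which trim procollagens; Adamts1, Adamts4, Adamts5, Adamts8, Adamts9 and Adamts15, known for cleaving aggrecan or versican; and Adamts12, known for cleaving COMP. Total RNA came from the Achilles tendon, the forepaw flexor tendons, the patellar tendon and the supraspinatus tendon of the shoulder, with 4 libraries of each and 16 in all. The labels name no treatment, genotype, age or sex, and do not say whether the libraries came from separate animals, so p-values measure the spread between these libraries, which may be technical. All 10 genes passed the filter on low counts, with 220 to 39534 counts per library.

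ADAMTS enzymes are secreted zinc proteases that carry thrombospondin type repeats, which hold them in the matrix near their substrates. ADAMTS2, ADAMTS3 and ADAMTS14 remove the amino-terminal propeptide of fibrillar procollagens, a step needed for normal fibril shape in tendon and skin. The aggrecan and versican cleaving members thin the large proteoglycans between fibrils, and ADAMTS4 and ADAMTS5 are the main aggrecanases of cartilage. TIMP3 inhibits several of these enzymes, and the receptor LRP1 takes them up from the matrix.

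Levels are CPM, a gene's counts divided by the TMM-scaled library total, with mean ± SD over 4 libraries. Fold changes are log2 values ± SE, first-named tendon over the second, from edgeR's quasi-likelihood test, with p-values adjusted over 16948 genes and a threshold of 0.05. Library totals ran from 63397591 to 102491699 counts. CPM is not corrected for transcript length, so levels are compared between tendons and not between genes. In tissue RNA, fewer cells of a type and less RNA per cell cannot be told apart. The tendon markers Scx, Mkx and Tnmd were detected in every library. Skeletal muscle markers were highest in supraspinatus libraries, where 8 genes summed to between 103457 and 197505 CPM. They summed to between 12788 and 48446 CPM in flexor, 491 and 6738 in Achilles and 350 and 27376 CPM in patellar libraries. The part of muscle in the ADAMTS levels was not tested.

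The libraries Achilles 1 and patellar 1 stood apart. Scx, a transcription factor of tendon cells, was at 5.67 CPM in Achilles 1 and at 25.4 to 86.4 CPM in the other Achilles libraries. The 6 Schwann cell and nerve markers summed to 5517 CPM in Achilles 1 and to 528 to 695 CPM in the others. In patellar 1 the muscle markers summed to 27376 CPM, against 350 to 3797 CPM in the other patellar libraries. In the 3 pairs with Achilles tendon, the fold changes in the authors' deposited table differed from the fit of all 16 libraries by a median of 0.068 to 0.0682 on the log2 scale, after the median offset of each pair was removed. From a fit without Achilles 1 they differed by 0.000619 to 0.000904. Without Achilles 1, 9 members differed among the 4 tendons. In the pairs this fit called 9 members in Achilles against flexor, 0 in Achilles against patellar, 6 in Achilles against supraspinatus, 9 in flexor against patellar, 5 in flexor against supraspinatus and 8 in patellar against supraspinatus tendon. Without Achilles 1 and patellar 1 together the counts were 9 among the tendons and, in the same order of pairs, 9, 0, 6, 9, 6 and 6.

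Of the 10 ADAMTS genes, 9 differed among the 4 tendons, where 75.6% of all genes did. Achilles tendon had 8 members higher and 1 lower than flexor tendon; in that pair 47.7% of the genes tested passed, with 23.5% higher and 24.1% lower in the Achilles. Achilles and patellar tendon differed in 0 of the 10, where 5.16% of the genes tested did, with 3.1% higher and 2.06% lower in the Achilles. Achilles tendon had 6 members higher and 1 lower than supraspinatus tendon, where 50.1% of the genes tested passed, with 25.4% higher and 24.7% lower in the Achilles. Flexor tendon had 1 higher and 8 lower than patellar tendon, where 50.5% of all genes differed, 25.8% higher and 24.7% lower in flexor tendon. Flexor tendon had 2 higher and 3 lower than supraspinatus tendon, where 47.7% differed, 23.4% higher and 24.3% lower in flexor tendon. Patellar tendon had 7 higher and 0 lower than supraspinatus tendon, where 56.4% differed, 28.8% higher and 27.5% lower in patellar tendon. The median log2 fold change of the 10 genes was 1.24 in Achilles against flexor, -0.14 in Achilles against patellar, 0.97 in Achilles against supraspinatus, -1.58 in flexor against patellar, -0.33 in flexor against supraspinatus and 1.30 in patellar against supraspinatus tendon. Over all genes tested the medians of these pairs were 0.01, -0.01, 0.05, 0.03, -0.03 and 0.05, in the same order. On library totals without TMM the split of the members against supraspinatus was 8 higher and 0 lower for Achilles, 3 higher and 1 lower for flexor and 8 higher and 0 lower for patellar tendon.

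**Figure D1:**
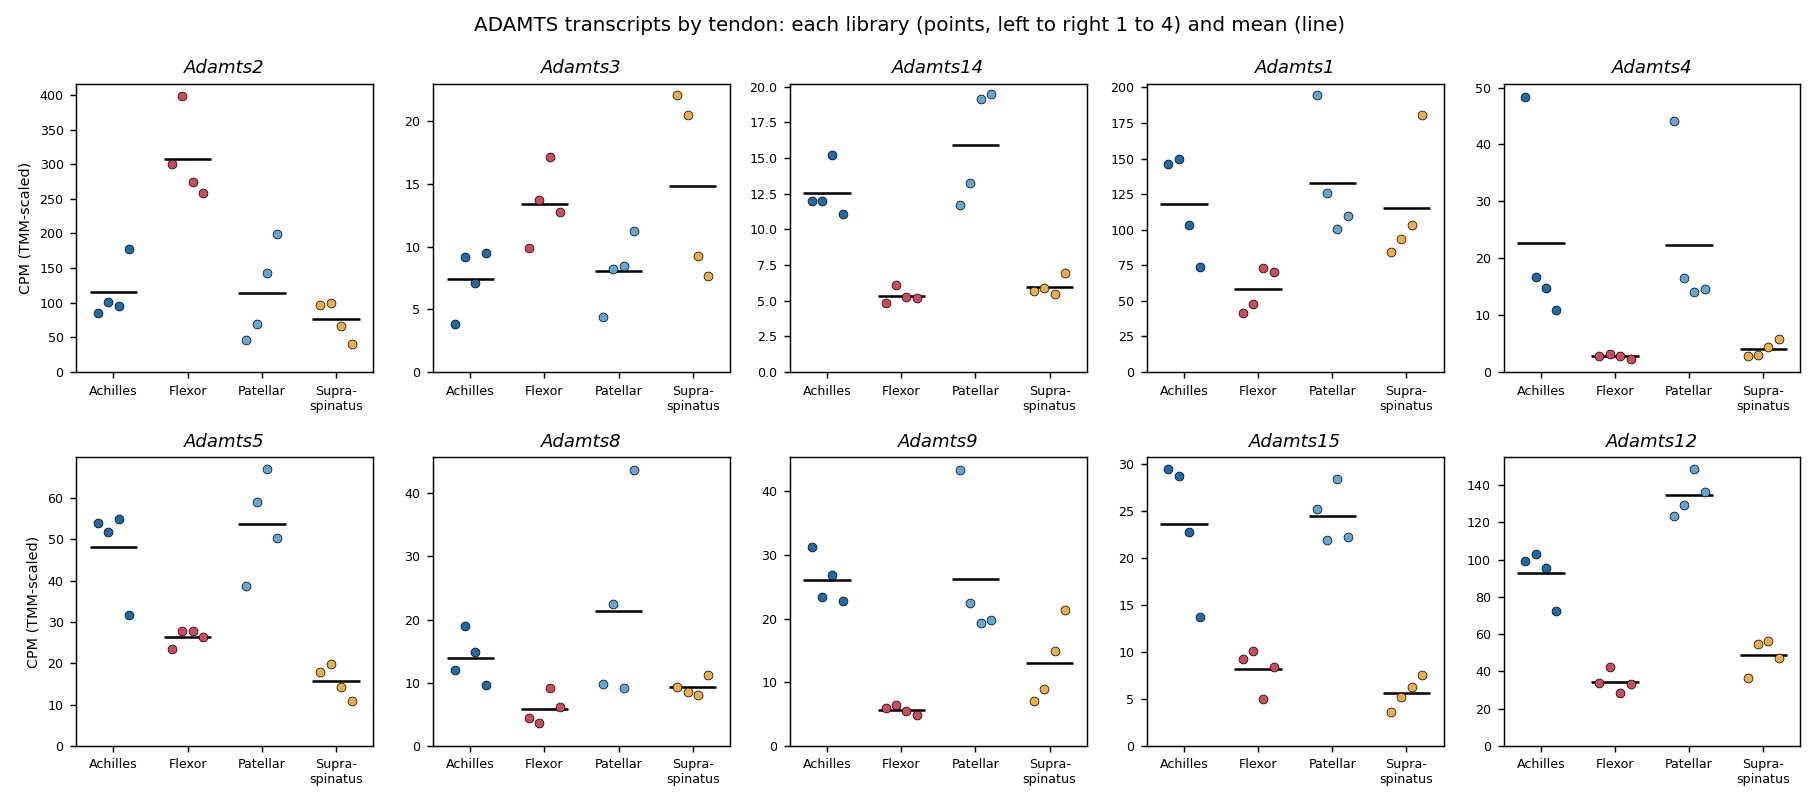
Level of each ADAMTS gene in CPM (linear axes from 0, 1 panel per gene) in the Achilles, flexor, patellar and supraspinatus libraries; points are libraries 1 to 4 from left to right and lines are means. Adamts2 is highest in the flexor libraries, at 259 to 398 CPM, while Adamts14, Adamts4, Adamts9, Adamts15 and Adamts12 are low there.

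Adamts14 and Adamts12 had the most alike profiles of the 10 genes and Adamts2 was high in flexor tendon, where both were low, so the regions before the annotated starts of these 3 genes are shown. Each is the 250 bases before the start in RefSeq (GRCr8), on the strand of the gene, and capitals mark the GC box GGGCGG on either strand. A window was found for 7 of the 10 members, the others being Adamts5, Adamts8 and Adamts15.
Adamts2, chr10:35421780-35422029, plus strand: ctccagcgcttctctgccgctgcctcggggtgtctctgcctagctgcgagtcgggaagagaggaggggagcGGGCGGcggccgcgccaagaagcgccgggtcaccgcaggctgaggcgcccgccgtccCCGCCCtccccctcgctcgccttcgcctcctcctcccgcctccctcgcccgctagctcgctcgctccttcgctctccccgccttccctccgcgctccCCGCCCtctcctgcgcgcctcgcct
Adamts14, chr20:29762683-29762932, minus strand: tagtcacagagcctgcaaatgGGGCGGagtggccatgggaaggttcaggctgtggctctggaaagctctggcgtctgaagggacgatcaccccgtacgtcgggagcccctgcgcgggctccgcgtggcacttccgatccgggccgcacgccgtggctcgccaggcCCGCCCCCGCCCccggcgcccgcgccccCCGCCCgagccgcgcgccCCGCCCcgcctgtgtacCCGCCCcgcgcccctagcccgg
Adamts12, chr2:61759737-61759986, plus strand: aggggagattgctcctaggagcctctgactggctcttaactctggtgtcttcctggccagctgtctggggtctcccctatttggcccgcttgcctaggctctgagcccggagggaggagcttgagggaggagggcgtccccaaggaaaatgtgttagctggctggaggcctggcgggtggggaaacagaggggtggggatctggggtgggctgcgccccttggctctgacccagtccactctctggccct
The GC box occurred 3 times in the Adamts2 window, 6 times in the Adamts14 window and 0 times in the Adamts12 window, against at least 1 in 30.5% of 33465 windows of this length. CpG pairs numbered 33, 33 and 5, with a median of 5 over all windows, and GC content was 75.6, 76 and 63.6%. Neither the TATA box TATAAA nor the CCAAT box CCAAT was found on either strand of these windows; 12.9% and 34.0% of all windows hold them. These letters describe the windows and no factor was measured on them.

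Among the procollagen trimming genes, Adamts2 was higher in flexor tendon than in each other tendon. Adamts2 (ENSRNOG00000061484), the main amino-terminal procollagen peptidase of skin and tendon, had 85.7, 101, 96.0 and 178 CPM in the Achilles libraries and 301, 398, 274 and 259 CPM in the flexor libraries. It had 46.7, 69.5, 142 and 199 CPM in the patellar libraries and 97.1, 99.9, 66.3 and 40.5 CPM in the supraspinatus libraries. Every flexor library was above every other library, whereas the other 3 tendons overlapped. The log2 fold change was -1.42 ± 0.41 in Achilles against flexor (adjusted p = 0.0103, edgeR), 1.43 ± 0.41 in flexor against patellar (0.00926) and 2.02 ± 0.42 in flexor against supraspinatus tendon (0.00107). Achilles against patellar gave 0.01 ± 0.40, with a 95% interval of -0.86 to 0.88, and the supraspinatus level was not separated from either hindlimb tendon (adjusted p = 0.23 and 0.223). On library totals without TMM both of those pairs passed, at 0.99 for Achilles and 0.97 for patellar against supraspinatus.

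Adamts2 was set against a transcript of its main substrate within each library, a ratio that scaling cannot change. For every 1000 counts of Col1a1, which encodes a chain of type I collagen, Adamts2 had 1.39 ± 0.30 counts in Achilles libraries, 13.7 ± 1.94 in flexor libraries, 1.47 ± 0.51 in patellar libraries and 1.79 ± 0.20 in supraspinatus libraries (SD, n = 4 each). The lowest flexor library had 11 and the highest library of the other tendons 1.97. Both parts of the ratio moved: Col1a1 itself was higher in Achilles than in flexor tendon (log2 fold change 1.91 ± 0.34, adjusted p = 0.000384, edgeR). Col1a2, which encodes the other chain of this collagen, had means from 65.3 CPM in flexor to 237 CPM in Achilles tendon. Col1a1 had 22728 and 85684 CPM there. The cause of this gap was not tested, so the ratio describes Col1a1 counts only.

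Adamts3 (ENSRNOG00000027463), which also processes the lymphatic growth factor VEGF-C, had 3.84, 9.16, 7.08 and 9.50 CPM in the Achilles libraries and 9.89, 13.7, 17.1 and 12.7 CPM in the flexor libraries. It had 4.37, 8.21, 8.46 and 11.2 CPM in the patellar libraries and 22.1, 20.5, 9.24 and 7.64 CPM in the supraspinatus libraries, where libraries 1 and 2 stood well above 3 and 4. It was the only member that did not pass the test among the 4 tendons (adjusted p = 0.0502, edgeR), and that result was borderline. It passed with DESeq2 (0.0162), limma-voom (0.0478), median-of-ratios factors (0.0454) and the filter of 1 CPM in 4 libraries (0.0498). It also passed without Achilles 4 (0.0484), flexor 1 (0.0486), patellar 4 (0.0385), supraspinatus 3 (0.033) or supraspinatus 4 (0.023). In the pairs only Achilles against supraspinatus passed, at -1.01 ± 0.38 (adjusted p = 0.0376). The libraries overlapped in that pair, and the call was lost without Achilles 1 (0.0967), Achilles 3 (0.0702), supraspinatus 1 (0.147) or supraspinatus 2 (0.11), without Achilles 1 and patellar 1 together (0.0578), on library totals (0.158) and in a fit of that pair alone (0.0735). Achilles against flexor (-0.86 ± 0.38, 0.0745) passed with DESeq2 (0.0453) and in a fit of that pair alone (0.0415), and patellar against supraspinatus (-0.88 ± 0.38, 0.0585) passed with DESeq2 (0.0311) and without Achilles 1 (0.0406), patellar 4 (0.039), supraspinatus 3 (0.0354) or supraspinatus 4 (0.0273).

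Adamts14 (ENSRNOG00000000563), a procollagen peptidase closely related to ADAMTS2, was high in the hindlimb tendons. It had 12, 12, 15.2 and 11.1 CPM in the Achilles libraries and 4.84, 6.10, 5.29 and 5.18 CPM in the flexor libraries. It had 11.7, 13.2, 19.2 and 19.5 CPM in the patellar libraries and 5.68, 5.88, 5.46 and 6.92 CPM in the supraspinatus libraries. Means were 12.6 ± 1.82 CPM in Achilles, 5.35 ± 0.53 in flexor, 15.9 ± 4.00 in patellar and 5.98 ± 0.65 CPM in supraspinatus tendon. The lowest hindlimb library had 11.1 CPM and the highest forelimb library 6.92 CPM, so the libraries of these tendons did not overlap. A difference between the limbs as such was not tested. Log2 fold changes were 1.23 ± 0.17 in Achilles against flexor, 1.07 ± 0.17 in Achilles against supraspinatus, -1.57 ± 0.17 in flexor against patellar and 1.41 ± 0.17 in patellar against supraspinatus tendon (adjusted p of 4.21e-05, 0.000111, 4.65e-06 and 1.04e-05, edgeR). Flexor against supraspinatus did not pass (-0.16 ± 0.17, 95% interval -0.52 to 0.20).

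Among the aggrecan and versican cleaving genes, the main cartilage aggrecanase genes were both low in the forelimb tendons, by unequal amounts. Adamts4 (ENSRNOG00000003538) had 48.4, 16.7, 14.8 and 10.9 CPM in the Achilles libraries and 2.89, 3.17, 2.77 and 2.27 CPM in the flexor libraries. It had 44.2, 16.4, 14.1 and 14.6 CPM in the patellar libraries and 2.78, 2.97, 4.34 and 5.87 CPM in the supraspinatus libraries. All hindlimb libraries were above all forelimb libraries, and library 1 was far above the rest in both hindlimb tendons. The Adamts4 fold change was 3.03 ± 0.49 in Achilles against flexor, 2.51 ± 0.48 in Achilles against supraspinatus, -3.01 ± 0.49 in flexor against patellar and 2.49 ± 0.48 in patellar against supraspinatus tendon (adjusted p of 0.000191, 0.000623, 0.000174 and 0.000585, edgeR). Without Achilles 1 the first of these was 2.35 and the second 1.83, and without patellar 1 the last was 1.90; all 3 still passed. In those fits Adamts15 had 1.94 in Achilles against supraspinatus and 2.08 in patellar against supraspinatus tendon. Flexor against supraspinatus (-0.52 ± 0.47, adjusted p = 0.379) passed once Achilles 1 and patellar 1 were both left out (-0.57 ± 0.22, adjusted p = 0.0447). Neither library is in this pair. They are the libraries highest in Adamts4 and were left out after seeing the data, so that call gives no separate support.

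Adamts5 (ENSRNOG00000057794) had 53.9, 51.9, 54.9 and 31.8 CPM in the Achilles libraries and 23.4, 27.9, 27.9 and 26.4 CPM in the flexor libraries. It had 38.8, 59.2, 67.1 and 50.4 CPM in the patellar libraries and 18.0, 19.9, 14.3 and 10.8 CPM in the supraspinatus libraries. The supraspinatus libraries were lowest, the flexor libraries came next without overlap, and the Achilles and patellar libraries shared the top. All 5 pairs other than Achilles against patellar passed. Log2 fold changes were 0.87 ± 0.21 in Achilles against flexor, 1.61 ± 0.21 in Achilles against supraspinatus, -1.03 ± 0.21 in flexor against patellar, 0.74 ± 0.21 in flexor against supraspinatus and 1.77 ± 0.22 in patellar against supraspinatus tendon (adjusted p of 0.0037, 3.28e-05, 0.00101, 0.00933 and 1.28e-05, edgeR). Within a library, Adamts5 had 2.71 ± 1.12 counts per Adamts4 count in Achilles, 9.65 ± 1.56 in flexor, 3.17 ± 1.64 in patellar and 4.58 ± 2.39 in supraspinatus tendon (SD, n = 4 each). The lowest flexor library, at 8.12, was above the highest of the other tendons, at 6.70.

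Adamts1 (ENSRNOG00000001607), an aggrecan and versican cleaving enzyme with a part in ovulation in mouse, was lower in flexor tendon than in each other tendon. It had 146, 150, 104 and 73.7 CPM in the Achilles libraries and 41.4, 47.5, 72.9 and 70.6 CPM in the flexor libraries. It had 195, 126, 101 and 110 CPM in the patellar libraries and 84.1, 93.2, 103 and 181 CPM in the supraspinatus libraries. The flexor libraries lay below all others, and the other tendons overlapped. Log2 fold changes were 1.03 ± 0.30 in Achilles against flexor, -1.19 ± 0.30 in flexor against patellar and -0.99 ± 0.30 in flexor against supraspinatus tendon (adjusted p of 0.0118, 0.00449 and 0.0142, edgeR). The last of these did not pass without supraspinatus 4 (-0.63, adjusted p = 0.0872) or on library totals (-0.62, 0.0861).

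In the rat annotation of RefSeq (GRCr8), Adamts1 and Adamts5 lie side by side on chromosome 11 with 0 protein-coding genes between them, as do Adamts8 and Adamts15 on chromosome 8. Adamts5 had 0.419 ± 0.0822 counts per Adamts1 count in Achilles, 0.477 ± 0.115 in flexor, 0.448 ± 0.192 in patellar and 0.156 ± 0.0735 in supraspinatus libraries (SD, n = 4 each). The highest supraspinatus library had 0.214, and of the other libraries only patellar 1, at 0.199, was below that.

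Adamts9 (ENSRNOG00000023257), a versican cleaving enzyme, had 31.2, 23.4, 26.9 and 22.8 CPM in the Achilles libraries and 6.01, 6.38, 5.49 and 4.86 CPM in the flexor libraries. It had 43.4, 22.4, 19.2 and 19.7 CPM in the patellar libraries and 7.08, 8.86, 14.9 and 21.3 CPM in the supraspinatus libraries. The flexor libraries were below all others, the Achilles and patellar libraries overlapped, and the supraspinatus libraries spread widely, with supraspinatus 4 above patellar 3 and patellar 4. Log2 fold changes were 2.20 ± 0.33 in Achilles against flexor, -2.20 ± 0.33 in flexor against patellar and -1.19 ± 0.32 in flexor against supraspinatus tendon (adjusted p of 9.18e-05, 7.58e-05 and 0.00651, edgeR). Achilles against supraspinatus (1.003 ± 0.32, adjusted p = 0.0162) was lost without supraspinatus 2 (0.0505), and patellar against supraspinatus (1.01 ± 0.32, adjusted p = 0.0138) without patellar 1 (0.0665) or in a fit of that pair alone (0.0573).

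Adamts15 (ENSRNOG00000009892), a versicanase, had 29.4, 28.7, 22.8 and 13.7 CPM in the Achilles libraries and 9.22, 10.1, 4.98 and 8.36 CPM in the flexor libraries. It had 25.3, 21.9, 28.5 and 22.2 CPM in the patellar libraries and 3.62, 5.25, 6.25 and 7.56 CPM in the supraspinatus libraries. Means were 23.7 ± 7.25 CPM in Achilles, 8.16 ± 2.24 in flexor, 24.5 ± 3.07 in patellar and 5.67 ± 1.66 CPM in supraspinatus tendon. The lowest hindlimb library had 13.7 CPM and the highest forelimb library 10.1 CPM. It was higher in Achilles than in flexor (1.54 ± 0.27, adjusted p = 0.000353) and supraspinatus tendon (2.06 ± 0.28, 3.35e-05), and higher in patellar than in supraspinatus tendon (2.11 ± 0.28, 2.25e-05). Flexor against patellar gave -1.58 ± 0.27 (0.00024). Flexor against supraspinatus (0.53 ± 0.27, adjusted p = 0.119) passed on library totals (0.89, 0.014), without flexor 3 (0.66, 0.049) and without supraspinatus 4 (0.76, 0.0483).

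Its neighbour Adamts8 (ENSRNOG00000005574), which can cleave aggrecan, had 12, 18.9, 14.9 and 9.66 CPM in the Achilles libraries and 4.44, 3.61, 9.13 and 6.19 CPM in the flexor libraries. It had 9.84, 22.5, 9.19 and 43.7 CPM in the patellar libraries and 9.28, 8.52, 8.11 and 11.3 CPM in the supraspinatus libraries. All flexor libraries were below all Achilles and patellar libraries, and the patellar libraries spread widely. Flexor against patellar tendon gave a log2 fold change of -1.87 ± 0.44 (adjusted p = 0.00276). Achilles against flexor (1.25 ± 0.43, 0.028) was lost without Achilles 2 (0.0691), flexor 1 (0.0671) or flexor 2 (0.0713). Achilles against supraspinatus (0.58 ± 0.43, 0.278) passed on library totals (1.01, 0.0455) and in a fit of that pair alone (0.60, 0.0423). Patellar against supraspinatus (1.20 ± 0.43, 0.0288) was 0.56 without patellar 4 (0.203). It was also lost without patellar 2 (0.0591), supraspinatus 1 (0.0512), supraspinatus 2 (0.0634) or supraspinatus 3 (0.0666), with limma-voom (0.101), in a fit of that pair alone (0.0555) and with the replicate numbers as a block (1.06, 0.0587).

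Adamts12 (ENSRNOG00000018865), which with ADAMTS7 cleaves the matrix protein COMP, had the smallest p of the 10 genes in the test among the 4 tendons (adjusted p = 4.35e-07). It had 99.4, 103, 95.4 and 72.6 CPM in the Achilles libraries and 33.7, 42.1, 28.2 and 33.2 CPM in the flexor libraries. It had 123, 129, 149 and 136 CPM in the patellar libraries and 36.3, 54.6, 56.5 and 47.3 CPM in the supraspinatus libraries. The patellar libraries were highest, the Achilles libraries next, and the forelimb libraries below both with some overlap between them. Log2 fold changes were 1.43 ± 0.16 in Achilles against flexor, 0.93 ± 0.15 in Achilles against supraspinatus, -1.97 ± 0.16 in flexor against patellar and 1.47 ± 0.16 in patellar against supraspinatus tendon (adjusted p of 6.56e-06, 0.000182, 4.29e-07 and 4.41e-06, edgeR). Flexor against supraspinatus (-0.50 ± 0.15, adjusted p = 0.0134) did not pass on library totals (-0.17, 0.443) or in a fit of that pair alone (-0.43, 0.0579).

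**Figure D2:**
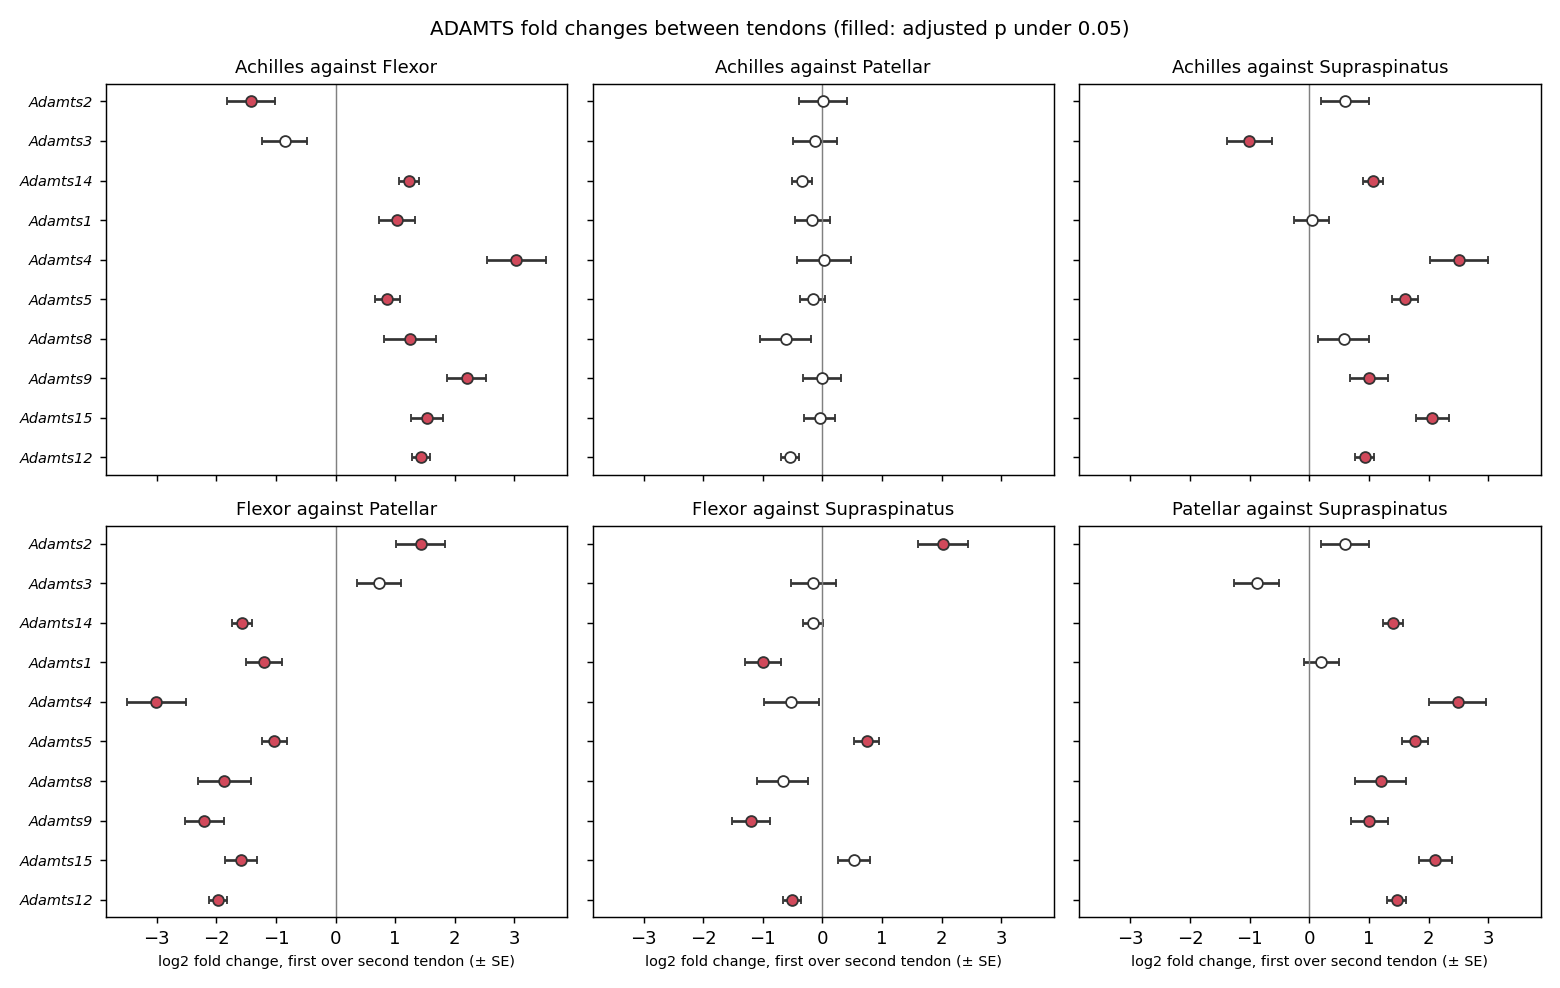
Log2 fold change of each ADAMTS gene ± SE in the 6 pairs of tendons, first-named over second-named tendon; filled points have an adjusted p under 0.05. In Achilles against patellar tendon all 10 points are open, and Adamts2 lies opposite to most members in Achilles against flexor and in flexor against patellar tendon.

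Between Achilles and patellar tendon, the hindlimb pair, edgeR called 0 members, and 1 had an unadjusted p under 0.05; limma-voom called 0 and DESeq2 1. That gene was Adamts12, at -0.54 ± 0.15, with a 95% interval of -0.87 to -0.21 and an adjusted p of 0.0556, and the libraries did not overlap. DESeq2 gave an adjusted p of 0.0145 for it, and it also passed without flexor 3 (0.0496), patellar 1 (0.0459) or supraspinatus 1 (0.0404). The 95% intervals of the other 9 genes included 0 and were narrowest for Adamts14, at -0.70 to 0.02, and wide for Adamts4, at -0.97 to 1.02, and Adamts8, at -1.55 to 0.31. The authors' deposited table gave 58 of the 60 fold changes of the members the same call and 57 the same sign. The exceptions in call were Adamts3 in Achilles and in patellar against supraspinatus tendon, with authors' FDR of 0.0932 and 0.0388. The authors' fold changes lay closest to the fit without Achilles 1, so the calls may rest on unlike libraries. That edgeR fit gave Adamts3 adjusted p-values of 0.0967 and 0.0406 in these pairs.

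Likeness between genes was measured as the root mean square difference of log2 CPM over the 16 libraries, each gene centred on its own mean. Of the 10 members the most alike were Adamts14 and Adamts12, at 0.280 log2 units, followed by Adamts14 and Adamts5, at 0.445. Of all named genes, the closest to Adamts12 were Col4a1 (0.175), a basement membrane collagen, Psmb10 (0.184), an immunoproteasome subunit, and Rtn1 (0.187). Closest to Adamts14 were Irf1 (0.233), an interferon-responsive factor, Serf1 (0.235) and Aldh7a1 (0.245). All libraries share their depth and scaling between genes, so these values describe the profiles only.

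Of 9 further proteases 7 differed among the tendons (75.6% of all genes did). Adamts20, a versican cleaving enzyme, was at 2.50 ± 1.42 CPM in Achilles, 10.7 ± 4.75 in flexor, 1.28 ± 0.98 in patellar and 27.8 ± 6.48 CPM in supraspinatus tendon (patellar against supraspinatus -4.44 ± 0.61, adjusted p = 3.35e-05). Adamts6, which acts on fibrillin microfibrils, was also highest in supraspinatus tendon, at 15.6 ± 2.76 CPM, against 6.37 to 8.84 CPM on average elsewhere. Adamts16 was lowest in the flexors, at 1.95 ± 0.44 CPM. Adamts19 averaged 3.32 ± 1.72 CPM in Achilles libraries, against 0.595 ± 0.362 CPM in patellar libraries (2.47 ± 0.51, adjusted p = 0.0146).

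The ADAMTS-like proteins share the ancillary domains but have no protease domain. Of 7 listed, 5 were in the count table and all 5 differed among the tendons (75.6% of all genes). Adamtsl5 was higher in the forelimb tendons, at 11.8 ± 2.73 CPM in Achilles, 26.4 ± 3.01 in flexor, 8.69 ± 1.79 in patellar and 28.8 ± 5.20 CPM in supraspinatus tendon. Adamtsl3 and Adamtsl4 were highest in the flexors, at 77.8 ± 10.2 and 405 ± 74.1 CPM. Papln, which encodes the related matrix protein papilin, was higher in both hindlimb tendons than in both forelimb tendons, at 28.4 ± 5.53 CPM in Achilles, 8.11 ± 1.79 in flexor, 44.9 ± 10.04 in patellar and 11.9 ± 4.68 CPM in supraspinatus tendon.

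Of 5 listed proteoglycan and COMP genes 4 were tested and 3 differed among the tendons (75.6% of all genes). Vcan, the large proteoglycan versican, was at 79.7 ± 13.2 CPM in Achilles, 321 ± 70.4 in flexor, 92.3 ± 39.0 in patellar and 553 ± 121 CPM in supraspinatus tendon (Achilles against supraspinatus -2.79 ± 0.29, adjusted p = 4.9e-06). Vcan was higher in both forelimb tendons than in both hindlimb tendons, while Adamts4, Adamts5, Adamts9 and Adamts15 were lower there and Adamts20 was higher. Of the other versican or aggrecan cleaving members, Adamts1 and Adamts8 did not pass between Achilles and supraspinatus tendon (adjusted p = 0.926 and 0.278, edgeR). Comp was higher in flexor than in patellar tendon (2.12 ± 0.39, adjusted p = 0.000418), where Adamts12 was lower. In Achilles against supraspinatus tendon Comp did not pass, while Adamts12 was higher in the Achilles (0.93 ± 0.15, adjusted p = 0.000182, edgeR). Acan, which encodes aggrecan, did not pass (adjusted p = 0.185), at 115 ± 68.3 CPM in Achilles, 53.5 ± 25.0 in flexor, 88.8 ± 54.9 in patellar and 120 ± 45.1 CPM in supraspinatus tendon. Bcan, brevican, was low everywhere, with means of 0.0873 to 0.825 CPM.

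Of 11 genes for procollagens and their processing at the other end, 10 were measured and 7 differed among the tendons (75.6% of all genes). The tolloid protease gene Tll1 had its highest mean in patellar tendon, at 20.6 ± 1.67 CPM, and lowest in supraspinatus tendon, at 4.53 ± 1.09 CPM (2.19 ± 0.20, adjusted p = 1.82e-06). Pcolce, the enhancer of carboxy-terminal procollagen cleavage, had its highest mean in Achilles tendon, at 1508 ± 163 CPM, with means of 584 to 958 CPM elsewhere. Col2a1, the collagen of cartilage, was at 57.4 ± 40.1 CPM in Achilles, 11.7 ± 3.55 in flexor, 47.5 ± 3.35 in patellar and 1764 ± 1782 CPM in supraspinatus tendon. The 7 chondrocyte markers, Col2a1 among them, summed to 609 to 4904 CPM in the supraspinatus libraries and 255 to 1034 CPM elsewhere. Col2a1 made up most of the mean supraspinatus sum of 2296 CPM, and the other markers did not follow it. Sox9 had its highest mean in flexor tendon, at 124 CPM against 53.5 CPM in supraspinatus tendon. Cnmd had its lowest mean in supraspinatus tendon, at 0.490 CPM. In Achilles against supraspinatus tendon 1 of the 7 was higher and 3 were lower (25.4% and 24.7% of all genes). The part of cartilage cells in the ADAMTS levels was not tested.

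Of 7 inhibitor and clearance genes 6 were tested and 4 differed among the tendons (75.6% of all genes). In Achilles against flexor tendon 1 was higher and 3 were lower, where 23.5% of all genes were higher and 24.1% lower. Timp2, an inhibitor mainly of matrix metalloproteinases, was at 210 ± 108 CPM in Achilles, 1592 ± 193 in flexor, 267 ± 184 in patellar and 109 ± 31.4 CPM in supraspinatus tendon. Reck, a membrane-bound protease inhibitor, and Lrp1 were higher in flexor than in each other tendon, Reck by 2.15 ± 0.32 and Lrp1 by 1.33 ± 0.17 over patellar tendon. Timp1 was highest in Achilles tendon (199 ± 33.9 CPM). Timp3, the inhibitor of the aggrecanases, did not pass (adjusted p = 0.148), with means of 479 to 594 CPM. Of 8 convertase and surface partner genes 7 were measured and 6 differed among the tendons (75.6% of all genes). In Achilles against flexor tendon 2 were higher and 4 lower, against the same shares of all genes. Furin, which activates many ADAMTS proenzymes, was at 40.0 ± 9.40 CPM in Achilles, 75.9 ± 9.47 in flexor, 30.5 ± 2.98 in patellar and 29.8 ± 2.97 CPM in supraspinatus tendon. Pcsk6, another convertase, and Sdc4, a syndecan linked to ADAMTS5 in mouse cartilage, were also higher in flexor than in each other tendon. Sdc1 was highest in Achilles tendon, at 179 ± 95.5 CPM.

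**Figure D3:**
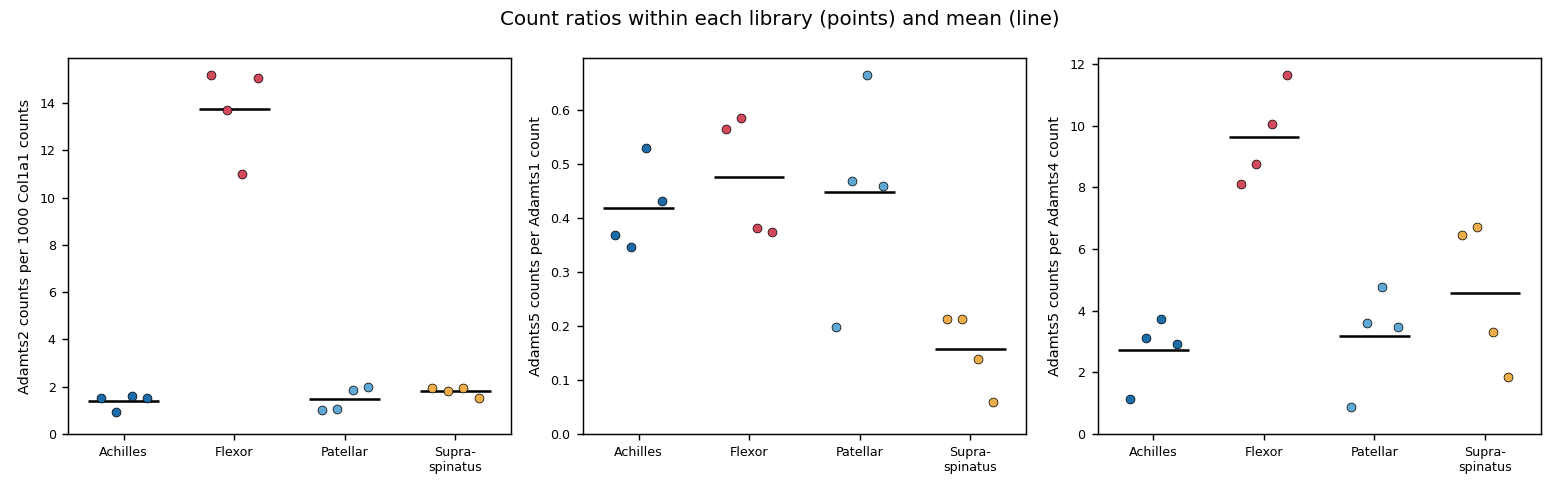
Count ratios within each library (points) with means (lines) by tendon: Adamts2 per 1000 Col1a1 counts, Adamts5 per Adamts1 count and Adamts5 per Adamts4 count, on linear axes from 0. The flexor libraries stand at 11 to 15.2 in the first panel, the supraspinatus libraries at 0.0596 to 0.214 in the second, and the flexor libraries highest in the third.

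Some marker lists of other cell types differed between the tendons. The 7 endothelial markers measured summed to between 1100 and 1629 CPM in Achilles, 372 and 664 in flexor, 1380 and 2217 in patellar and 568 and 1128 CPM in supraspinatus libraries. All 7 were higher in Achilles than in flexor tendon (23.5% of all genes were), with a median log2 fold change of 1.57. In patellar against supraspinatus tendon 6 of 7 were higher (28.8% of all genes were). The 6 adipocyte markers summed to between 2719 and 10038 CPM in Achilles, 386 and 790 in flexor, 4286 and 11226 in patellar and 139 and 358 CPM in supraspinatus libraries. The 6 mast cell and neutrophil markers summed to between 70.8 and 148 CPM in Achilles, 34.1 and 94.7 in flexor, 167 and 365 in patellar and 5.44 and 12.2 CPM in supraspinatus libraries. The 8 immediate early genes summed to 388 to 553 CPM in Achilles, 2040 to 6033 in flexor, 631 to 829 in patellar and 585 to 2567 CPM in supraspinatus libraries. The part of these cells and responses in the ADAMTS levels was not tested.

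**Figure D4:**
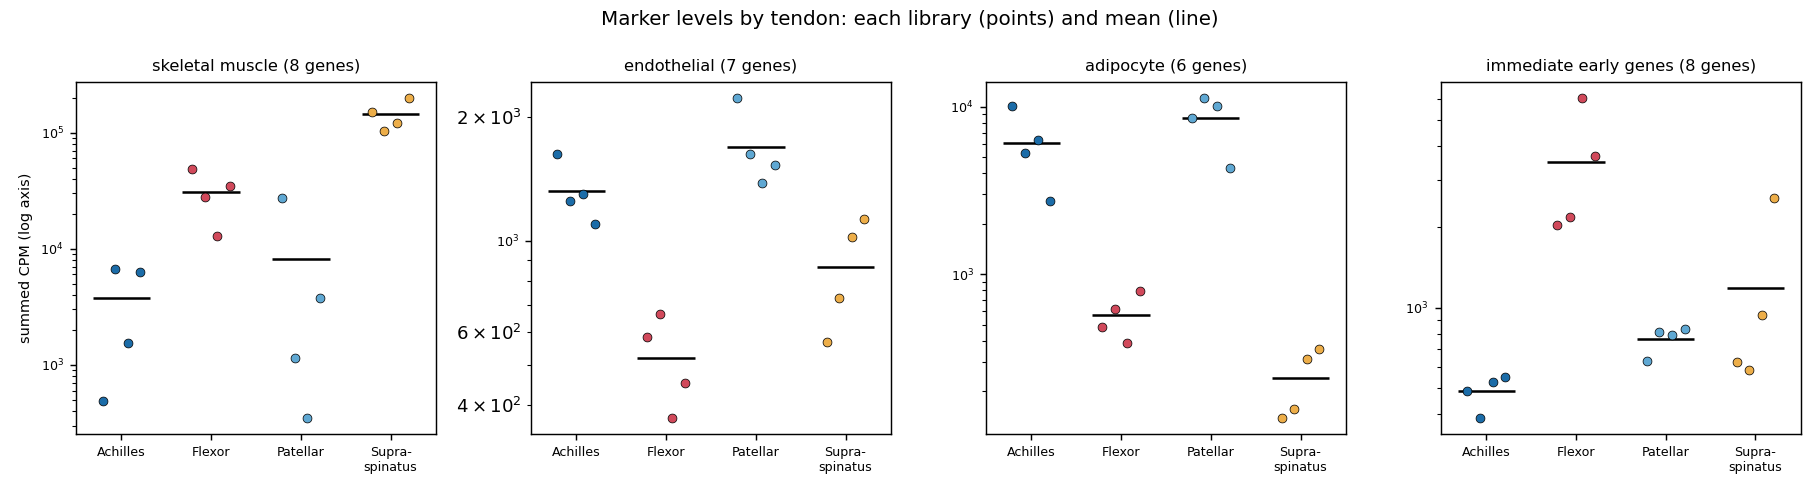
Summed CPM of marker lists in each library (points, log axis) with means (lines) by tendon. Endothelial and adipocyte markers are high in Achilles and patellar libraries, the immediate early genes are high in flexor libraries, and muscle markers are highest in supraspinatus libraries, from 103457 CPM upwards.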

How the data were processed

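The authors' deposited count table gives whole-number read counts for each Ensembl gene in each of the 16 libraries. A second table by the authors gives a mean log2 CPM, log2 fold changes and p-values, unadjusted and adjusted (FDR), for 12588 genes, per the file headers. Per the submitters' processing notes the tools were FastQC, HISAT2 and edgeR, on build rn6; for the counting tool, annotation and strand, nothing is given in the sources used here. Whether reads of overlapping or antisense genes were kept apart is therefore not known. Grouping followed the sample titles.

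Here the counts were filtered with filterByExpr (minimum count 10, total 15), scaled by TMM and fitted in edgeR 4.0.16 (R 4.3.3) with 1 coefficient per tendon over 16 libraries, leaving 12 residual degrees of freedom. P-values were adjusted by Benjamini-Hochberg within each comparison. Log2 CPM used a prior count of 2; each SE was derived from the log2 fold change and its F statistic. Alternatives were median-of-ratios factors, library totals, DESeq2 1.42.0, limma-voom (limma 3.58.1), no filter, a filter of 1 CPM in 4 libraries, a replicate block, fits of 1 pair alone, and fits without each library. A fit without Achilles 1 and patellar 1, the libraries highest in Adamts4, was chosen after seeing the data, as were the count ratios and the comparison with the authors' fold changes. Members and gene lists were chosen with earlier results of these data known. All members are named, and from each list the 4 genes with the smallest p among the tendons. A few others, such as Col1a2, Sox9 and Cnmd, are also given. Likeness was ranked for the 2 members with the smallest p.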

Additional observations from a re-analysis of the deposited data

Results flagged for a closer look

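Each group examined was the CPM of 1 ADAMTS gene in the 4 libraries of 1 tendon. In 5 of 40 groups a single library stood apart by more than Dixon's 95% critical gap. Chance gives such a gap in about 1 of 20 independent groups. The genes share the same libraries, so the count of flags cannot be judged against that rate. Adamts4 was at 48.4 CPM in Achilles 1 and at 10.9 to 16.7 CPM in the other Achilles libraries. It was at 44.2 CPM in patellar 1 and at 14.1 to 16.4 CPM in the other patellar libraries. Adamts9 was at 43.4 CPM in patellar 1, against 19.2 to 22.4 CPM in the rest of its tendon. Adamts2 was at 178 CPM in Achilles 4, against 85.7 to 101.2 CPM in the other Achilles libraries, and Adamts5 was at 31.8 CPM in Achilles 4, against 51.9 to 54.9 CPM. Achilles 4 also had the highest Scx of its tendon, at 86.4 CPM.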

How the results depend on the processing

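Of 70 member results (10 genes in the test among the tendons and in 6 pairs), 51 kept their call in every alternative, with no change of sign by more than 1 SE. No called fold change changed sign. Values below the threshold changed sign 37 times. By more than 1 SE these were Adamts4 in Achilles against patellar (0.02) without Achilles 1 (-0.66; range without 1 library -0.66 to 0.59), Adamts9 in the same pair (-0.01) without patellar 1 (0.35; range -0.12 to 0.35), and Adamts14 in flexor against supraspinatus on library totals (0.19). Achilles against patellar was the comparison that moved: 874 genes and 0 members were called, 342 to 1415 genes and 0 to 1 members without 1 library, 1381 genes without Achilles 1 and patellar 1, and 1977 genes and 1 member, Adamts12, with DESeq2. The lowest count came without Achilles 2 (342), and counts also moved by over 1.5 times without Achilles 3 (480), patellar 1 (1415), patellar 2 (403), patellar 3 (360) or patellar 4 (463). On library totals the share of called genes that were higher was 78.7% for Achilles (50.7% with TMM), 78.3% for flexor (49%) and 77% for patellar (51.1%) against supraspinatus tendon, with the median of all genes shifted by 0.415, 0.344 and 0.415. In deviations from the tendon means, same-numbered libraries correlated at -0.210 to 0.370, over 0.1 in 9 of 24 cases. They were the best match in 10 of 24. With 4 libraries a tendon, these values cannot show whether a replicate number stands for a single animal. With the replicate block 12629 genes differed among the tendons, and 1 of the 70 member results changed its call, Adamts8 in patellar against supraspinatus. The smallest count of a member in a library was 220, and the 95% intervals of the fold changes rest on 4 libraries a tendon.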
